A study of Mus musculus with 7 samples.

Results

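The genes described here are the cytosolic heat shock chaperones Hspa1a, Hspa1b, Hspa8, Hsp90aa1, Hsp90ab1, Dnajb1, Hsph1, Hspb1 and Bag3, and their transcriptional regulator Hsf1. They were taken by name from a deposited table of 56941 gene rows, and each of the 10 names matched 1 row. The table came from RNA sequencing of cerebral cortex of mice at postnatal day 7, with 4 wild-type samples (WT) and 3 samples of the Hnrnph2 P213L genotype (P213L). P213L is an amino acid change in the X-linked RNA-binding protein HNRNPH2, and the labels give no treatment, sex, strain or zygosity and do not name individual animals. The P values below therefore measure the spread between these samples, which may be technical. Values are transcripts per 1000000 transcripts (TPM), which account for gene length and so allow levels of different genes in 1 library to be compared.

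Heat shock proteins bind unfolded stretches of other proteins and help them to fold, to be held in solution or to be passed on for degradation. The HSP70 proteins work in cycles of ATP binding and hydrolysis, which J-domain proteins such as Dnajb1 start and nucleotide exchange factors such as Hsph1 and Bag3 reset. HSP90 takes over clients that are further along, among them kinases and steroid receptors. Under heat or other protein-damaging stress, the transcription factor HSF1 forms trimers, binds heat shock elements made of inverted GAA units and switches on the inducible genes. Brain tissue keeps high levels of the constitutive forms Hspa8 and Hsp90ab1 without stress, and many neurons are known to induce Hspa1a and Hspa1b weakly.

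The RefSeq promoter table (build GRCm38.p6) held 8 start-site windows for 6 of the members, Hspa1a, Hspa1b, Dnajb1, Hsph1, Hspb1 and Bag3. The 250 bases before each start were searched on both strands for the 2-unit heat shock element, written GAANNTTC or TTCNNGAA. It was present in 4 of the 6 genes, Hspa1a, Hspa1b, Hsph1 and Hspb1, and in 12.8% of all 32851 promoter windows of that length. For Dnajb1 and Bag3, the first bases after the start used were not found in a GENCODE vM21 transcript. A Dnajb1 window (83608298 to 83608547) also lies inside the annotated gene. The search therefore does not show that Dnajb1 and Bag3 lack the element. No member window held an exact copy of the 3-unit element, 5′ to 3′ GAANNTTCNNGAA or TTCNNGAANNTTC. Of all windows 0.466% held it, and the 2-unit forms are contained in it. Elements with a mismatched unit were not searched for, so the search does not show that longer elements of that kind are absent. Hspa1a and Hspa1b are shown over the whole 250 bases because they are near-identical copies, which bears on how their values can be read. The other windows are the elements of Hsph1 and Hspb1 with 10 bases on either side. Capitals mark the 2-unit elements, and a match of letters is not a measured binding site.
Hspa1a, chr17:34972157-34972406, minus strand: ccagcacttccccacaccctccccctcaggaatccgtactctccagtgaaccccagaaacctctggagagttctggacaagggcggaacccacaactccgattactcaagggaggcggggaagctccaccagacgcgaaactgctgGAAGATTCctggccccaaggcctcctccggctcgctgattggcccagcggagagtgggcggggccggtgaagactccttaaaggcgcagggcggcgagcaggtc
Hspa1b, chr17:34959239-34959488, minus strand: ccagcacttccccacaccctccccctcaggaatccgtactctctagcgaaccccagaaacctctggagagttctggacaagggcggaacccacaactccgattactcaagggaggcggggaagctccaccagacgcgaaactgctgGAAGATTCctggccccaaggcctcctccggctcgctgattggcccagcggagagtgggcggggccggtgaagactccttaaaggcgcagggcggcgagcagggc
Hsph1, chr5:149636352-149636379, minus strand: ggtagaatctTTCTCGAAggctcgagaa
Hspb1, chr5:135887792-135887839, plus strand: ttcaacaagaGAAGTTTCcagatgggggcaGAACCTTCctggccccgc
The upstream sequences of Hspa1a and Hspa1b were identical at 247 of 250 bases (98.8%). The differences, from Hspa1a to Hspa1b and counted from 1 at the 5′ end, were C44T, T47C and T249G, all outside the element, which lies 97 to 104 bases before the start in both. The Hspb1 window held elements at 90 to 97 and at 110 to 117 bases before its start.

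Testing covered the 17582 genes that averaged 1 TPM or more, all 10 members among them. Library depth, estimated from the lowest values, was 57.2 to 79.4 times 1000000 counted units. WT replicate 3 stood apart: over genes it correlated at 0.943 to 0.949 with the other 6, which correlated at 0.981 to 0.992 with each other, and 55.2% of the tested genes had their lowest value there. Each member is therefore given with and without it. Summed markers of excitatory neurons, which define cortex, reached 892 TPM in WT replicate 3, with 1466 to 1706 TPM elsewhere. Choroid plexus markers reached 1314 TPM in WT replicate 2 and 40.6 to 54.4 TPM elsewhere. Tissue samples cannot tell a change in the number of cells of a type from a change in RNA per cell.

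The members spanned a wide range of levels, with the constitutive genes at the top and the stress-inducible HSP70 genes at the bottom. Hsp90ab1 (2414 ± 73.3 TPM in WT, SD, n = 4) ranked 29th of all rows by mean TPM, Hspa8 (1179 ± 22.9 TPM) 58th and Hsp90aa1 (878.9 ± 109.9 TPM) 110th. These 3 genes held 94.8 to 96.0% of the TPM of the 10 members in every sample. Hsph1 (121.3 ± 14.6 TPM) and Dnajb1 (66.7 ± 5.46 TPM) followed. Hsf1 (14.0 ± 4.39 TPM), Bag3 (7.94 ± 1.06 TPM) and Hspb1 (7.79 ± 2.23 TPM) came next, and Bag3 and Hspb1 did not differ beyond their spread. Hspa1a (2.17 ± 0.449 TPM) and Hspa1b (1.58 ± 0.364 TPM) were lowest, with overlapping ranges in WT. Their values are too low if reads common to both copies were left out of counting, which is not stated. The 10 members together made up 0.462 to 0.476% of all TPM in WT and 0.477 to 0.492% in P213L. Spread differed as well: the coefficient of variation over WT samples was 1.94% for Hspa8 and 3.04% for Hsp90ab1, but 31.3% for Hsf1 and 28.6% for Hspb1, with a median of 20.8% over all tested genes.

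**Figure D1:**
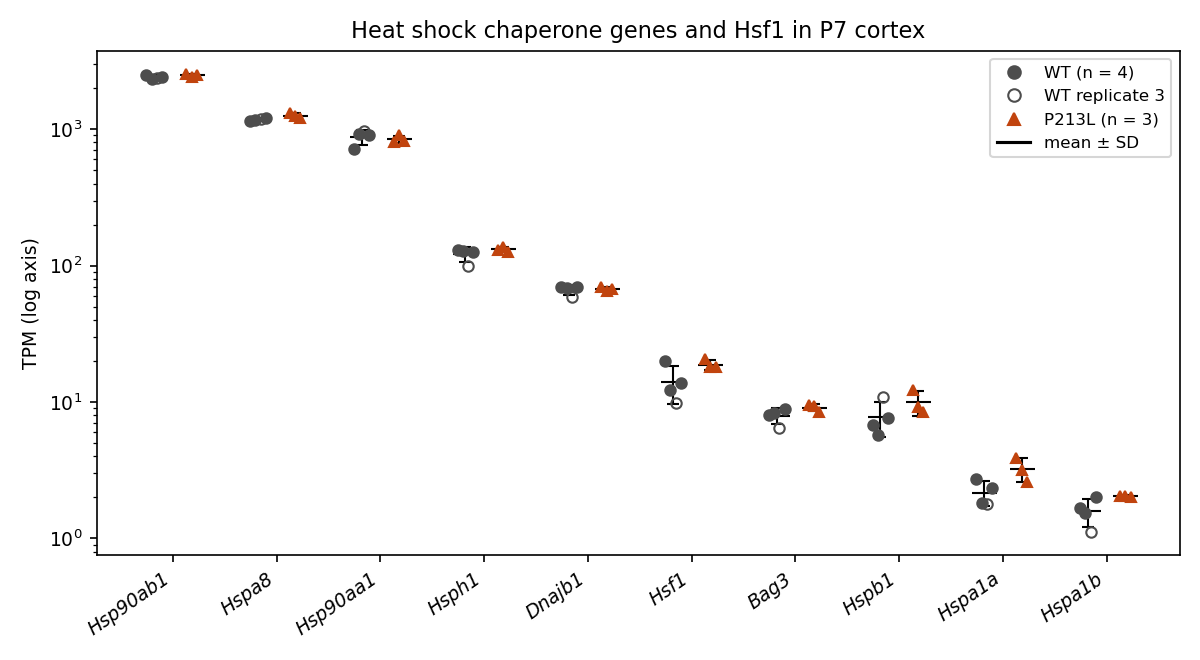
TPM of each member in every sample on a log axis, ordered by WT mean; grey circles are WT samples (open, WT replicate 3), orange triangles P213L samples, and black marks the mean ± SD. Hsp90ab1, Hspa8 and Hsp90aa1 lie far above the rest, and Hspa1a and Hspa1b are lowest.

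Hspa1a and Hspa1b encode the stress-inducible HSP70, and both had higher mean values in P213L, neither past the threshold over all genes. Hspa1a (mm10, chromosome 17, 34969190 to 34972156, minus strand, 1 exon) stood at 2.71, 1.81, 1.79 and 2.35 TPM in WT replicates 1 to 4 and at 3.89, 3.16 and 2.61 TPM in P213L replicates 1 to 3. WT replicate 1 lay above P213L replicate 3, so the groups overlapped. The mean was 1.49 times that of WT, with a log2 change of 0.48 ± 0.20 (SE; 95% interval 0.03 to 0.94) on the log2(TPM + 0.5) scale used throughout. In limma the unadjusted p was 0.0397 and the adjusted p 0.827, and the exact permutation p was 0.0857. Without WT replicate 3 the log2 change was 0.41, and without P213L replicate 1, the highest sample, it was 0.36. The value rests on few reads, an estimated 96.5 to 225 counted units per library. The gene model Gm20481 overlaps Hspa1a on the other strand, and whether counting used the strand is not stated, so reads from the pair may not be separated.

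Hspa1b (chromosome 17, 34956436 to 34959238, minus strand, 1 exon) lies 9951 bases from Hspa1a. Its values were 1.68, 1.53, 1.12 and 1.996 TPM in WT and 2.06, 2.06 and 1.999 TPM in P213L. All 3 P213L samples lay above all 4 WT samples, but the gap between the groups was only 0.0028 TPM, less than 1 counted unit in a gene with 57 to 117 units per library. The log2 change was 0.30 ± 0.19 (SE; 95% interval -0.13 to 0.74; limma adjusted p = 0.827; exact permutation p = 0.0571) and 0.19 without WT replicate 3, the lowest sample. Of the windows of 100 bases along the Hspa1a transcript in GENCODE vM21, 47.1% occur identically in Hspa1b. Reads from those stretches cannot be assigned to 1 copy, and how they were counted is not given in the sources used here. Summed into 1 row, the copies had a log2 change of 0.45 (limma adjusted p = 0.827).

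Hspa8 encodes the constitutive HSC70, which also strips clathrin from vesicles (chromosome 9, 40800984 to 40810087, plus strand). It stood at 1149, 1173, 1191 and 1201 TPM in WT and at 1316, 1251 and 1208 TPM in P213L. The groups did not overlap, with 6.67 TPM between the highest WT sample and P213L replicate 3. The difference was small, 1.07-fold, or 0.09 ± 0.08 on the log2 scale (SE; 95% interval -0.10 to 0.29; limma adjusted p = 0.827). The exact permutation p was 0.0286, the smallest that 4 against 3 samples can give. The log2 change was 0.10 without WT replicate 3 and 0.06 without P213L replicate 1. With median-of-ratios scaling, which moved the median of all genes from 0.07 to -0.005, Hspa8 had a log2 change of 0.009. Small nucleolar RNA genes (Snord14c, Snord14d and Snord14e) lie within Hspa8 on its strand.

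The inducible genes were also set against Hspa8 within each sample, a ratio that does not depend on library scaling. Hspa1a and Hspa1b together came to 0.382, 0.285, 0.244 and 0.362% of the Hspa8 level in WT and to 0.452, 0.418 and 0.382% in P213L. WT replicate 1 and P213L replicate 3 held nearly the same ratio. Hspa1a shares no identical window of 50 bases with Hspa8. If reads common to both Hspa1 copies were left out of counting, these percentages are too low. The log2 difference of 0.41 missed the threshold (two-sided exact permutation p = 0.143; 0.286 adjusted over the 2 ratios computed). It was 0.29 without WT replicate 3. The plot of the HSP70 genes by sample shows the near-flat Hspa8 values beside the wider spread of the inducible genes.

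**Figure D2:**
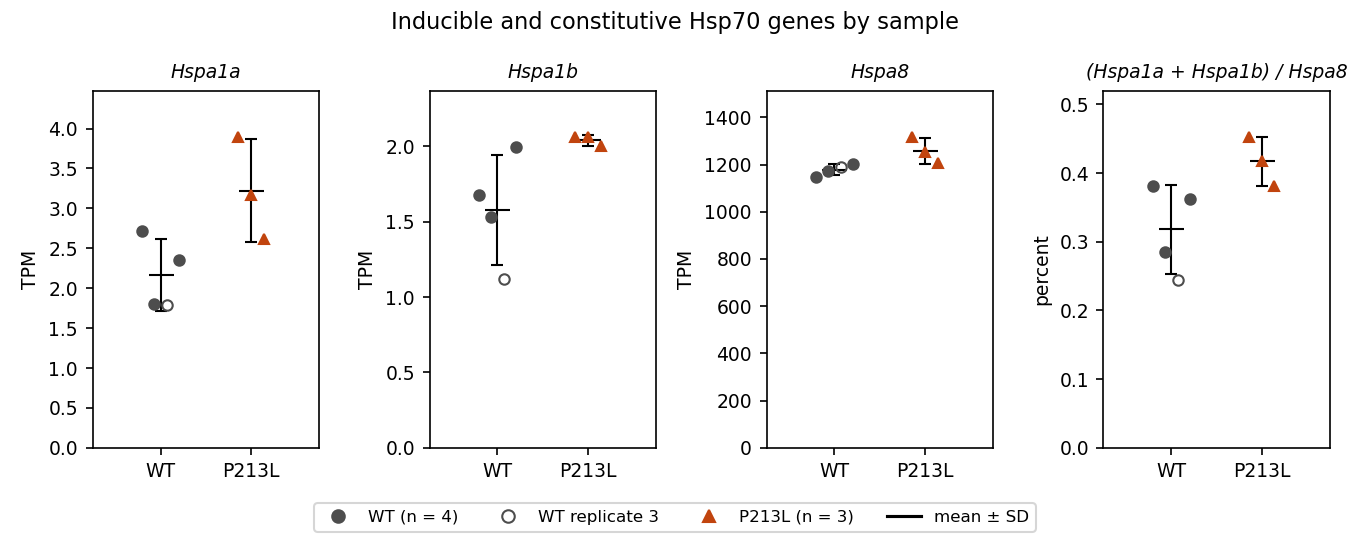
Hspa1a, Hspa1b and Hspa8 in TPM and the ratio of the inducible genes to Hspa8 in percent, each on a linear axis from 0; circles are WT samples (open, WT replicate 3), triangles P213L samples, black the mean ± SD. P213L replicate 1 is the highest sample in all 4 panels, and the ratios of the groups overlap.

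The HSP90 genes had small differences that overlapped between the groups. Hsp90ab1, the constitutive form (chromosome 17, 45567775 to 45573271, minus strand), stood at 2515, 2343, 2383 and 2416 TPM in WT and at 2541, 2409 and 2510 TPM in P213L. Its log2 change was 0.04 ± 0.08 (SE; 95% interval -0.15 to 0.23; limma adjusted p = 0.873), and -0.04 with median-of-ratios scaling. It was 0.04 without WT replicate 3, 0.03 without WT replicate 2 or P213L replicate 1, and 0.07 without P213L replicate 2. Hsp90aa1, the more heat-inducible form (chromosome 12, 110690605 to 110702728, minus strand), stood at 720.0, 915.5, 973.3 and 906.6 TPM in WT and at 811.3, 903.5 and 814.1 TPM in P213L. WT replicate 1 was the lowest of the 7 and WT replicate 3 the highest. Hsp90aa1 was the only member with a mean below WT, and its log2 change was -0.05 ± 0.12 (SE; 95% interval -0.34 to 0.24; limma adjusted p = 0.896). Under quantile normalization it was 0.02. Without WT replicate 3 it was -0.0007 and without WT replicate 1 it was -0.15, and leaving out P213L replicate 2 gave -0.10. Leaving out any of the other 4 libraries gave -0.03. The level of Hsp90aa1 came to 28.6 to 40.8% of that of Hsp90ab1 in WT and to 31.9 to 37.5% in P213L, a log2 difference of -0.10 (exact permutation p = 0.571, also after adjustment over the 2 ratios). Unlike the Hspa1 copies, Hsp90aa1 and Hsp90ab1 share no identical window of 50 bases in their longest coding transcripts.

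The cochaperones of HSP70 gave no difference past the threshold. Dnajb1, the main J-domain partner of inducible HSP70 (chromosome 8, 83608193 to 83612653, plus strand), stood at 69.9, 68.2, 58.6 and 70.0 TPM in WT and at 69.9, 65.5 and 67.0 TPM in P213L. WT replicate 3 was the lowest sample, and the other 3 WT samples lay at 68.2 to 70.0 TPM, within or just above the P213L range. The log2 change of 0.02 ± 0.10 (SE; 95% interval -0.22 to 0.26; limma adjusted p = 0.953) turned to -0.04 without WT replicate 3 and to -0.06 with median-of-ratios scaling.

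Hsph1, the HSP110 exchange factor (chromosome 5, 149614287 to 149636376, minus strand), stood at 131.3, 128.1, 99.6 and 126.1 TPM in WT and at 131.1, 137.1 and 126.5 TPM in P213L. Again WT replicate 3 was lowest and the other 6 libraries lay close together. The log2 change was 0.12 ± 0.12 (SE; 95% interval -0.16 to 0.41; limma adjusted p = 0.827) and 0.03 without that library. Bag3, which links HSP70 to small heat shock proteins and to selective autophagy (chromosome 7, 128523616 to 128546981, plus strand), stood at 8.04, 8.37, 6.45 and 8.90 TPM in WT and at 9.48, 9.38 and 8.45 TPM in P213L. WT replicate 4 exceeded P213L replicate 3, so these groups overlapped too. Its log2 change was 0.19 ± 0.14 (SE; 95% interval -0.13 to 0.52; limma adjusted p = 0.827) and 0.10 without WT replicate 3. The gene 2610306O10Rik overlaps Bag3 on the same strand, so reads there may be split or lost.

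**Figure D3:**
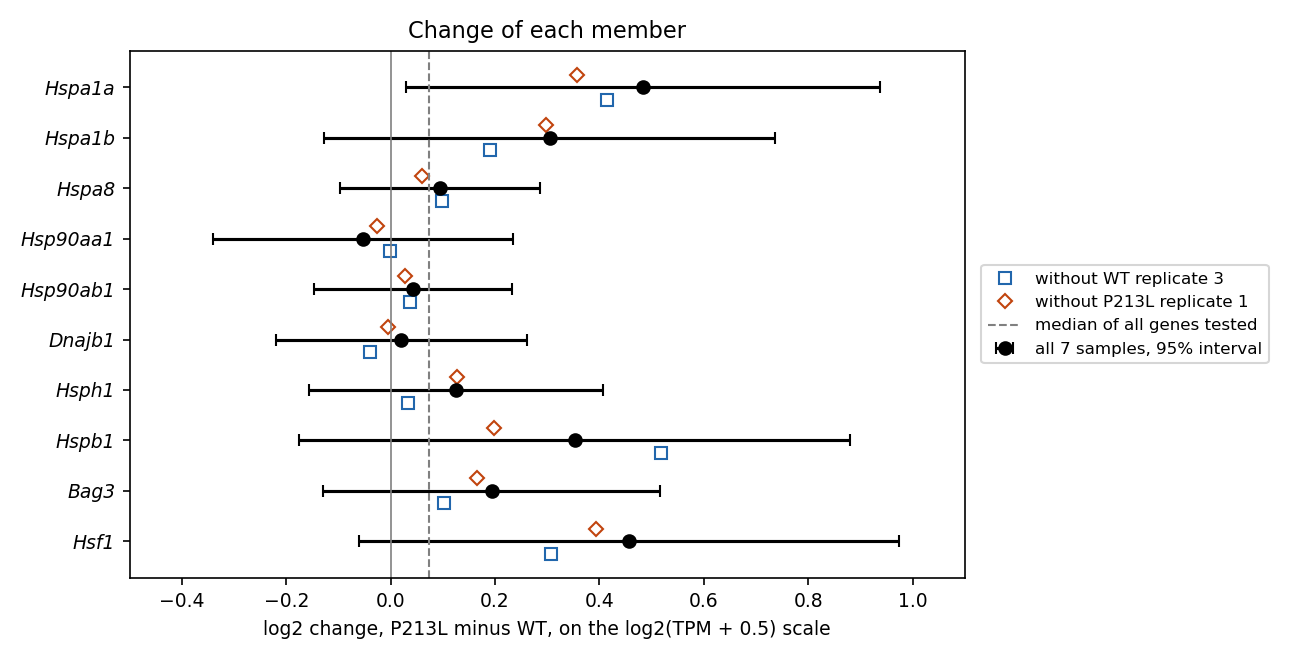
Log2 change of each member, P213L minus WT, with its 95% interval from limma (black), and the value without WT replicate 3 (blue squares) or without P213L replicate 1 (orange diamonds); the dashed line is the median of all tested genes, 0.07. Only the interval of Hspa1a lies above 0, and Dnajb1 changes sign without either library.

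Hspb1 encodes HSP27, a small heat shock protein that holds unfolded proteins without ATP and binds the actin skeleton (chromosome 5, 135887919 to 135889563, plus strand). It stood at 6.83, 5.75, 10.9 and 7.66 TPM in WT and at 12.3, 9.16 and 8.41 TPM in P213L. WT replicate 3 was the highest library after P213L replicate 1 here, whereas it was the lowest for Hspa1a, Hspa1b, Dnajb1, Hsph1, Bag3 and Hsf1. The log2 change was 0.35 ± 0.23 (SE; 95% interval -0.17 to 0.88; limma adjusted p = 0.827; exact permutation p = 0.229). Without WT replicate 3 the change was 0.52 (limma adjusted p = 0.514), and without P213L replicate 1 it was 0.20. No marker of the lists given here was below 0.1 TPM in every sample. The 10 endothelial markers also summed highest in WT replicate 3, at 584.8 TPM against 437.5 to 473.3 TPM in the other WT samples, but P213L lay at 460.8 to 471.2 TPM. Cldn5 (331.6 TPM) and Itm2a (147.8 TPM) made up most of the sum in WT replicate 3, while 5 of the 10 (Pecam1, Flt1, Cdh5, Tek and Abcb1a) had their lowest value there. Erythroid markers were highest in WT replicate 3 as well, at 903.1 TPM against 415.2 to 600.6 TPM elsewhere, through its 4 globin genes, whereas Alas2 was not raised there (4.505 TPM). Markers of pericytes and vascular smooth muscle summed to between 160.2 and 204.4 TPM (WT) and between 164.1 and 183.2 TPM (P213L). The part of these cells in the Hspb1 values was not tested.

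Hsf1, the regulator, had the largest SD of log2(TPM + 0.5) over the 7 samples, 0.39, although the ratio of highest to lowest sample was larger for Hspa1a (2.18) and Hspb1 (2.14) than for Hsf1 (2.10) (chromosome 15, 76477422 to 76501913, plus strand). It stood at 20.1, 12.3, 9.80 and 13.9 TPM in WT and at 20.6, 17.94 and 17.96 TPM in P213L. WT replicate 1 reached the P213L range, while the other 3 WT samples lay below it. The log2 change was 0.46 ± 0.22 (SE; 95% interval -0.06 to 0.97; limma adjusted p = 0.827; exact permutation p = 0.114). Leaving out WT replicate 3 gave 0.31, and leaving out WT replicate 1 gave 0.64. HSF1 activity is known to be set mainly on the protein, by trimer formation and modification, which transcript levels do not show.

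The genes whose profile over the 7 samples was most like that of Hsf1 were Man2c1, an alpha-mannosidase, Riox2, a histidyl hydroxylase, and Cdh24, a cadherin. Likeness was the mean absolute difference between log2 profiles centred on their own means, which was 0.048, 0.049 and 0.053 for these genes against a median of 0.30 over 14273 genes. Man2c1 stood at 43.6, 26.2, 21.9 and 32.6 TPM in WT and at 42.4, 38.4 and 41.0 TPM in P213L. Like Hsf1, it was high in WT replicate 1, low in WT replicate 3 and even across P213L. No other member came near this likeness. Hspa1a was closest at 0.15, at rank 670, and Hsp90aa1 was farthest at 0.42.

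Counted together, 9 of the 10 members had a log2 change above 0, where 63.4% of all tested genes did. The members' median was 0.16 and that of all genes 0.07. With median-of-ratios scaling 7 of 10 members were above 0 (median 0.08), where 49.1% of all genes were. Under quantile normalization 9 members were above 0, where 48.6% of all genes were. With mitochondrially encoded genes removed it was 8 members, against 59.2% of all genes. After adjustment in limma no member had a p under 0.05, nor did any other tested gene (0%). At an unadjusted p under 0.05 in limma there was 1 member, Hspa1a, against 3.74% of all genes (657, with 415 higher and 242 lower, or 371 and 344 with median-of-ratios scaling). The member count was 0 with median-of-ratios scaling, quantile normalization or no filter, and without WT replicate 2, WT replicate 4, P213L replicate 1 or P213L replicate 2. It was 2 without WT replicate 1. Over all genes, leaving out WT replicate 1 gave 1571 and leaving out WT replicate 3 gave 1532. Leaving out a P213L library gave 269 (replicate 1), 391 (replicate 2) or 315 (replicate 3). The 2 members whose P213L samples all lay above WT, Hspa1b and Hspa8, compare with 5.94% of all genes. None had all P213L samples below WT, which held for 2.75% of genes.

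Sample by sample, the highest value fell in P213L replicate 1 for 7 of the 10 members, where 14.7% of all tested genes had theirs. These 7 were Hspa1a, Hspa1b, Hspa8, Hsp90ab1, Hspb1, Bag3 and Hsf1. The lowest value fell in WT replicate 3 for 6 members, close to the share of all genes (55.2%). P213L replicate 1 also held the lowest share of TPM in mitochondrially encoded transcripts, 4.17% against 5.58 to 8.51% in the other libraries. With those transcripts removed from the table, 8 members were above 0 and their median was 0.13. Of all genes in that fit 59.2% were above 0, with a median of 0.05.

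**Figure D4:**
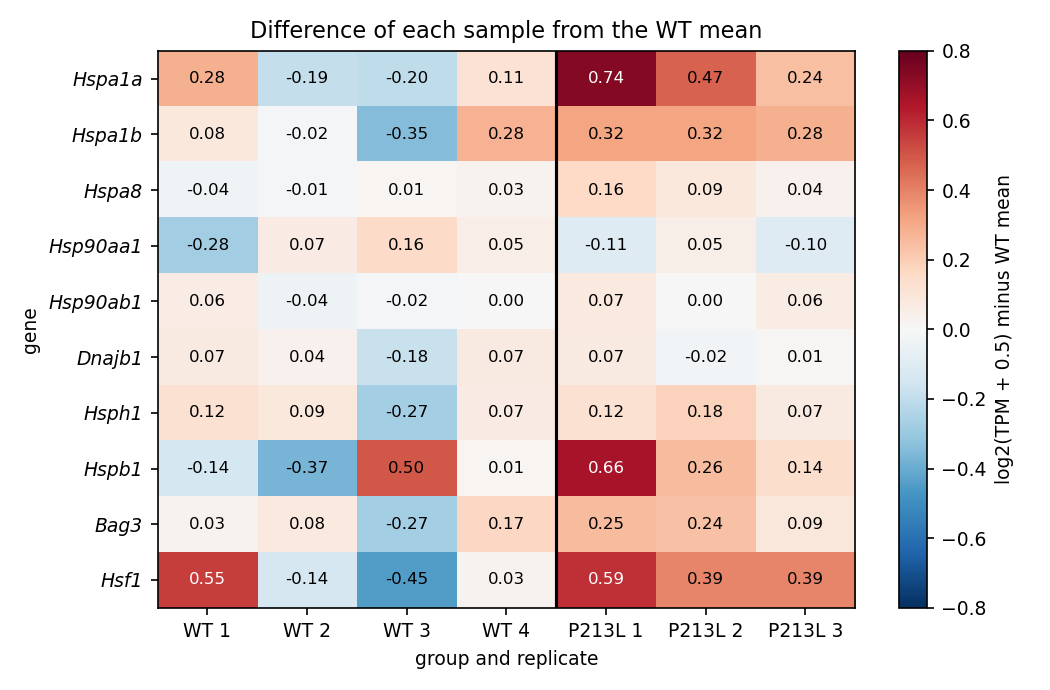
Difference of each sample from the WT mean for each member, on the log2(TPM + 0.5) scale, with the WT samples left of the line and the P213L samples right of it. WT replicate 3 is low for most members and high for Hspb1 and Hsp90aa1, and P213L replicate 1 is the highest sample for 7 of 10.

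The other genes of the chaperone network lay more often below 0 than above it. Over 79 genes outside the members in 9 lists, 77 were tested, 25 had a log2 change above 0 and 52 below, with a median of -0.06 and 0 past adjustment in limma (1 higher and 1 lower at an unadjusted p under 0.05). Without WT replicate 3 the counts were 31 and 46 and the median -0.02, and with median-of-ratios scaling 18 and 59. Of all tested genes 63.4% were above 0, or 49.7% without WT replicate 3 and 49.1% with that scaling. WT replicate 3 held the highest value of 46 of the network genes and the lowest of 20, against 21.6% and 55.2% of all tested genes.

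Textbook HSF1 targets outside the members gave 4 values above 0 and 12 below (median -0.11; -0.005 without WT replicate 3). Without that library Chordc1 (0.01), Ahsa1 (0.07) and Hspe1 (0.007) also lay above 0. Serpinh1, the collagen chaperone of the endoplasmic reticulum, stood at 105.1, 78.7, 71.0 and 89.4 TPM in WT and at 123.0, 109.9 and 109.9 TPM in P213L. All P213L samples lay above WT, with a log2 change of 0.42 ± 0.15 (SE; limma adjusted p = 0.827). Summed markers of meningeal fibroblasts, which make collagen, lay between 95.7 and 175.7 TPM (WT) and between 167.6 and 232.1 TPM (P213L). Of the 8 markers 7 had a log2 change above 0, where 63.4% of all tested genes did. The part of these fibroblasts in the Serpinh1 values was not tested. Cryab, the small heat shock protein alpha-B crystallin known from astrocytes and oligodendrocytes, stood at 71.8, 67.3, 87.4 and 68.4 TPM in WT and at 62.7, 59.3 and 54.6 TPM in P213L. The groups did not overlap (log2 change -0.32 ± 0.12, SE; limma adjusted p = 0.827). The 6 oligodendrocyte markers summed to between 289.8 and 337.5 TPM (WT) and between 220.4 and 237.0 TPM (P213L). Of these markers 5 had all P213L samples below WT, where 2.75% of all tested genes did, while Mog overlapped with a log2 change of 0.08. The summed astrocyte markers overlapped (501.3 to 669.5 and 604.4 to 619.8 TPM), but 1 of those 6, S100b, had all P213L samples below WT (46.6 and 31.4 TPM on average, log2 change -0.53 ± 0.19, SE). What these cells add to Cryab was not tested. Dnajb4, a J-domain protein, had a log2 change of -0.25 ± 0.14 (SE).

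The list of other small heat shock genes held Cryab and genes with an Hspb symbol, which alone does not show that each encodes a chaperone. Of these, 6 of 7 were tested, with 1 above 0 and 5 below (median -0.255). Hspb11 (-0.28 ± 0.17, SE; -0.14 without WT replicate 3) had all P213L samples below WT, like Cryab, and Hspb8, the partner of Bag3, had 0.21 ± 0.16. The cytosolic chaperonin CCT and its helper prefoldin, which fold actin and tubulin, gave 13 of 14 values below 0 (median -0.11). All 14 had their highest value in WT replicate 3, where 21.6% of all tested genes had theirs. Without that library the median was -0.03, and Cct4 (0.05), Cct5 (0.08), Cct7 (0.03) and Cct8 (0.02) lay above 0 beside Cct3. Pfdn4 had a log2 change of -0.31 ± 0.25, Vbp1 of -0.28 ± 0.24 and Cct6a of -0.17 ± 0.15 (SE). Without WT replicate 3 these were -0.09, -0.11 and -0.05.

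The lists of partners and regulators of the members had medians near or below 0, and with median-of-ratios scaling each of them had a median below 0. Cochaperones of HSP90 had 6 values above 0 and 8 below (median -0.02; -0.11 with that scaling), with Ptges3 (p23) at -0.25 ± 0.18, Unc45a at 0.20 ± 0.14 and Stip1, which joins HSP70 to HSP90, at 0.12 ± 0.09 (SE). The other HSP70 cochaperones had 3 above and 5 below (median -0.02; -0.10 with that scaling), with Bag6 at 0.36 ± 0.22, Bag4 at -0.21 ± 0.18 and Bag5 at -0.08 ± 0.11. Other J-domain genes had 5 above and 7 below (median -0.03; -0.11), with Dnajb2 at 0.16 ± 0.11 and Dnaja4 at 0.33 ± 0.23. The remaining HSP70 and HSP110 genes had 4 above and 3 below (median 0.02; -0.06), with Hspa12b at 0.17 ± 0.13, Hspa12a at 0.24 ± 0.28 and Hspa14 at -0.06 ± 0.10. Of the HSF family and its regulators 4 of 5 were tested, with 1 above and 3 below (median -0.10; -0.19). Among them Hsbp1, a small protein that binds HSF1, stood at -0.17 ± 0.12, Hsf4 at 0.22 ± 0.19 and Hikeshi, which carries HSP70 into the nucleus, at -0.11 ± 0.14.

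Mitochondrial chaperones, which work in another compartment, had 3 values above 0 and 4 below (median -0.10), or 1 and 6 with median-of-ratios scaling (median -0.19). Clpb had a log2 change of 0.23 ± 0.14, Hspa9 of -0.14 ± 0.10 and Hspe1, which is also an HSF1 target, of -0.19 ± 0.21 (SE). Many of these values were smaller in size without WT replicate 3. Of those above 0, Bag6 came to 0.16, Dnaja4 to 0.11, Unc45a to 0.12, Hspa12b to 0.09 and Clpb to 0.13. Of those below 0, Ptges3 came to -0.11, Hsbp1 to -0.08, Hspa14 to -0.04, Hikeshi to -0.008 and Bag5 to -0.007. Direction turned for Hspa12a (-0.05) and Hspe1 (0.007).

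Rapid response genes, which stress and neuronal activity also switch on, had 15 of 16 values above 0 (median 0.27), or 12 of 16 with median-of-ratios scaling (median 0.18). In limma 0 passed adjustment and 5 had an unadjusted p under 0.05. Of all tested genes 63.4% were above 0, or 49.1% with that scaling, and 3.74% had an unadjusted p under 0.05 in limma. Fos, a subunit of AP-1, stood at 8.61, 10.01, 6.96 and 7.07 TPM in WT and at 23.0, 13.5 and 10.9 TPM in P213L. Btg2, an antiproliferative gene, stood at 11.0, 10.6, 10.6 and 11.9 TPM and at 21.9, 15.5 and 14.8 TPM. In both, P213L replicate 1 was the highest sample and P213L replicate 3 the lowest of its group. P213L replicate 1 held the highest value of 8 of the 16 genes, and of 14.7% of all tested genes. The log2 change was 0.86 ± 0.26 for Fos, 0.61 ± 0.16 for Btg2 and 0.80 ± 0.30 for Fosb (SE; limma adjusted p = 0.827 for each).

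**Figure D5:**
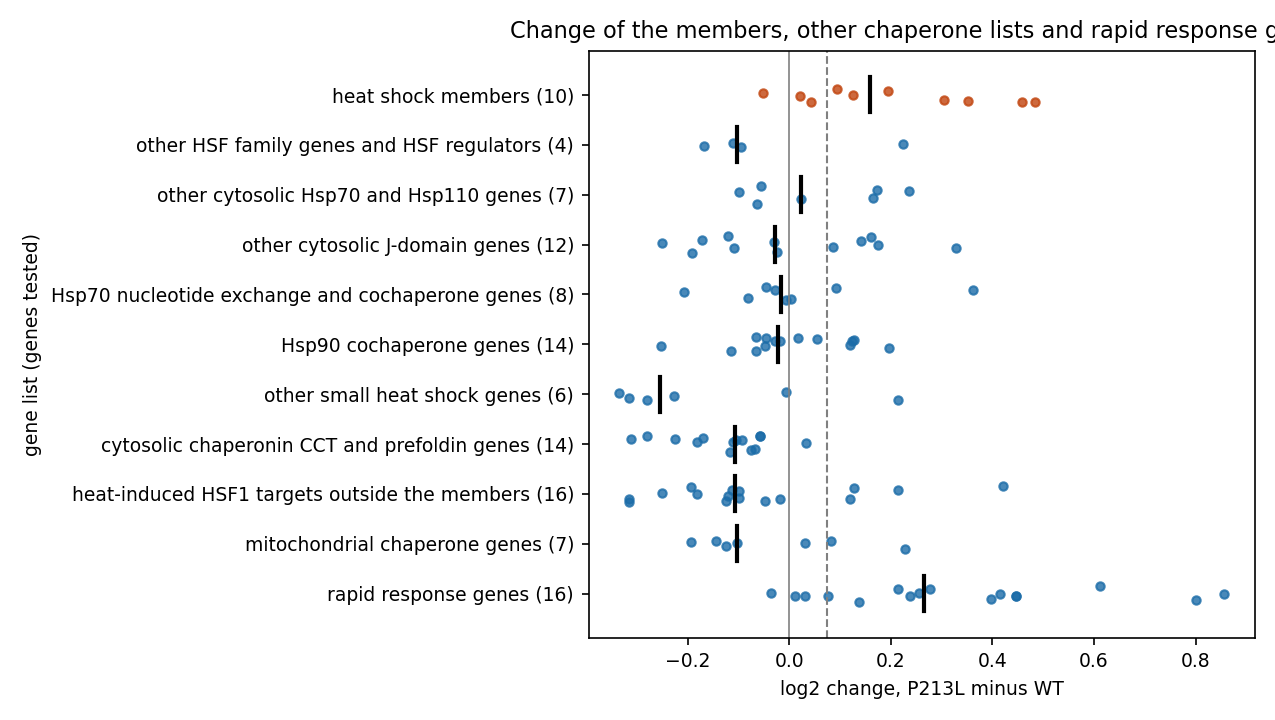
Log2 change of every tested gene of each list, P213L minus WT, with the median of the list (black bar); members in orange, other lists in blue, the dashed line at the median of all tested genes. The members and the rapid response genes have medians of 0.16 and 0.27, and the chaperonin and prefoldin genes lie almost all below 0.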

How the data were processed

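Per the labels' protocols, fresh cortex was extracted with TRIzol and stranded mRNA libraries were made. The submitters' processing notes name HISAT2, HTSeq and mm10, without versions, and the annotation is not given in the sources used here. What the authors deposited is 1 table of TPM values, 1 column per library. From these values, log2(TPM + 0.5) was tested in limma 3.58.1 (R 4.3.3) with a mean-variance trend over genes averaging 1 TPM or more, with Benjamini-Hochberg adjustment over all 17582 genes and a threshold of 0.05. Exact permutation tests, two-sided, used all 35 assignments of the group labels, with a smallest p of 0.0286. Depth was estimated from the steps between low values; 95.1 to 96.0% of them lay within 0.05 of a multiple of 0.5 units but only 63.9 to 72.1% of whole units, so no count test was run. Gene positions come from GENCODE vM21 (mm10) and promoters from RefSeq. Genes named from each list were the 3 with the lowest p, and the genes most like Hsf1 were taken because Hsf1 had the largest SD of log2 values over the samples. The members and lists were chosen with earlier results of these data known. Alternatives were another pseudocount, filters, scalings, array weights, the replicate number as a block, and each library left out.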

Additional observations from a re-analysis of the deposited data

Results flagged for a closer look

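In the WT group, 4 of 22 measures (the 10 members, 10 sums of cell type markers and the 2 ratios) had 1 sample far from the other 3 (Dixon's test at the 95% level). Chance gives about 1 in 20 for each measure. The measures are not independent: the flags for Dnajb1, Hsph1 and excitatory neurons all fall in WT replicate 3, which stood apart over all genes. The count of flags therefore does not show an excess over chance. Dnajb1 stood at 5.88 on the log2(TPM + 0.5) scale in WT replicate 3 (gap over range 0.848), and Hsph1 at 6.65 in the same library (0.855). The log2 of the summed excitatory neuron markers was 9.80 there (0.948). The log2 of the summed choroid plexus markers was 10.4 in WT replicate 2 (0.916). The part of these marker shifts in the values of Dnajb1 and Hsph1 was not tested.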

How the results depend on the processing

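Under the alternatives, the direction of member values turned only for Hsp90aa1, Hsp90ab1, Dnajb1 and Bag3, as given below. Among the member values 1 had an adjusted p under 0.05. That value came from limma with array weights, under which Hsf1 had a log2 change of 0.38 (adjusted p = 0.0164). Hsf1 was the 1 member called, beside 27 genes of the other lists and 3981 of all 17582 genes tested. Those weights were 0.441, 1.25, 0.0431 and 5.24 for WT replicates 1 to 4. They were 1.00, 1.16 and 6.90 for P213L replicates 1 to 3. The call therefore rests largely on WT replicate 4 and P213L replicate 3. Genes at an unadjusted p under 0.05 numbered 6969 with weights, 1836 with no filter, 361 with a mean of at least 5 TPM, which drops Hspa1a and Hspa1b, and 269 to 1571 with 1 library left out.

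Direction turned for Hsp90aa1 under quantile normalization (0.0246) and for Hsp90ab1 with median-of-ratios scaling (-0.0418). For Dnajb1 it turned with median-of-ratios scaling (-0.0637), quantile normalization (-0.0355), mitochondrially encoded genes removed (-0.00578) and array weights (-0.0517), and with 1 library left out its range was -0.0401 to 0.045. With array weights it turned for Bag3 (-0.00933), Hikeshi (0.000488), Hspa14 (0.0142), Bag5 (0.0496) and Hspa12a (-0.016). With 1 library left out, Hspa12a ranged from -0.0452 to 0.342 and Hspe1 from -0.282 to 0.00742. The cause was not tested.

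Samples of the same replicate number correlated at 0.128, 0.17 and -0.101 in their deviations from the group means, so the numbers were not shown to pair the samples. With the number as a replicate block, 0 genes passed adjustment in limma and 500 had an unadjusted p under 0.05. In that fit 9 members were above 0, where 64.9% of all genes were.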
